A study of Caenorhabditis elegans with 2 samples.

Results

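The small-subunit ribosomal protein genes of Caenorhabditis elegans are the 31 protein-coding genes, of 19973 on the nuclear chromosomes, whose name in the Ensembl annotation of WBcel235 starts with rps-. They run from rps-0 to rps-30 without a gap. The ubiquitin fusion gene ubl-1, whose product includes a further small-subunit protein, falls outside this name rule and is described with the partner genes. Binding of NHR-237 was measured by ChIP-seq, in which DNA bound by a factor is immunoprecipitated and sequenced. The study has 1 group of 2 biological replicates: whole L1 larvae, of mixed sex and unknown age, of strain OP228, which carries unc-119(ed3) III and the transgene insertion wgIs228 for an eGFP-tagged nhr-237. All animals therefore carried the transgene and the unc-119 allele, binding is that of a tagged protein from an added transgene, and whole animals give the sum over all their cells. The labels name the fusion as target and NHR-237 in the antibody field, and which part the antibody recognised is unknown. Untagged animals and input DNA were not analysed here, and the number of reads is unknown.

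The small ribosomal subunit binds the messenger RNA, scans for the start codon and checks the match between codon and transfer RNA. It has a head and a body with a platform, and its proteins surround a single ribosomal RNA. Every growing cell needs these proteins in matched amounts, and their genes are among the most highly transcribed in animal cells. Nuclear hormone receptors bind DNA through a pair of zinc fingers, and many recognise copies of the half-site AGGTCA. In nematodes many messenger RNAs, including those of ribosomal proteins, receive a spliced leader at their 5′ end, so that an annotated start can lie downstream of the true start of transcription. For the rps- genes the shortest annotated distance from start to start codon was 0 to 86 bp with a median of 10 bp, and 24 of the 31 had a single annotated start.

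Each gene was given a promoter of 1000 bp upstream to 200 bp downstream of any of its transcript starts. A promoter counts as holding a region when the summit, the point of strongest enrichment, lies inside it. Regions came from 4 lists on the ce11 build: replicate 1 with 21745 regions, replicate 2 with 25720, the pooled list with 7699, and 970 peaks kept by the authors' cutoff on the irreproducible discovery rate (IDR), a measure of how well replicates match. The authors' signal is a peak score of unstated scale, so ranks within a list are given beside it, rank 1 being the strongest. There is no second group, so no test between conditions exists and the values below are a description.

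The sequences below are 101 bases centred on the pooled summit. They belong to the 6 rps- genes of highest IDR signal among those on chromosomes II to V, and show how varied the DNA under strong regions was. Each is read 5′ to 3′ along the strand of its gene, from the RefSeq sequence of WBcel235. Capitals mark 4 words of 6 bases in either orientation. One is GAGACC and another is CGCAGC. The other two, which overlap, are CAGCCA and its shifted form AGCCAA. The windows lie at chrIII:5679090-5679190 (plus strand), chrIV:1659226-1659326 (plus), chrIII:4475625-4475725 (plus), chrIII:1950365-1950465 (plus), chrIII:7179787-7179887 (minus) and chrIV:385540-385640 (plus).
rps-12: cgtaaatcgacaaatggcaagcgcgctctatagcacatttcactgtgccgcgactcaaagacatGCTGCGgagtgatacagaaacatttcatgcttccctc
rps-28: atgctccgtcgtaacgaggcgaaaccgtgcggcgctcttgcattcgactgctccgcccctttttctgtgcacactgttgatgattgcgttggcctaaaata
rps-1: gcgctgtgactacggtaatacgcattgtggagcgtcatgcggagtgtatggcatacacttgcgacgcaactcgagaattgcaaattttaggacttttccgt
rps-22: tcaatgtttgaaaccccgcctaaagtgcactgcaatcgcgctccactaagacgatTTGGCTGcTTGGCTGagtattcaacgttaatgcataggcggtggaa
rps-14: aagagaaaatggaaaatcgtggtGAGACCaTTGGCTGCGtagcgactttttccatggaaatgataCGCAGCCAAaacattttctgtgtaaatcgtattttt
rps-24: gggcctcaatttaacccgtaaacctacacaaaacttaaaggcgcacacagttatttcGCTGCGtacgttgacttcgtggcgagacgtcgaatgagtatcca

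The next pair comes from rps-8 (chrIV:7314098-7314198, minus strand) and rps-13 (chrIII:6375225-6375325, minus strand), the highest in the pooled list on chromosomes II to V among genes without an IDR peak. They are shown to set beside the windows of the genes with one.
rps-8: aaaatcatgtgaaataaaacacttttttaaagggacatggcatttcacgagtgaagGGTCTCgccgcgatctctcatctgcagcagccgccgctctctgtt
rps-13: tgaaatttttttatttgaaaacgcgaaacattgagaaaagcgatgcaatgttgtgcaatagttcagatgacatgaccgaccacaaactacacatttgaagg

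An IDR summit lay in the promoter of 22 of the 31 rps- genes, and all 31 had a region in the pooled list and in each replicate list. The 22 are 71.0% (95% exact interval 51.96 to 85.8, counting error only), where 4.66% of all protein-coding genes had an IDR summit. No region served more than 1 rps- gene. For these 22 genes the IDR rank and signal equal the pooled ones, and the weakest IDR peak has pooled rank 970. The IDR list thus matches the 970 strongest pooled regions. In the pooled list 31 of 31 stand beside a background of 18.4%, in replicate 1 beside 35.0% and in replicate 2 beside 39.4%. The long lists reach many promoters of every kind, so presence in them says less than rank. By its label the pooled list holds peaks and background, so a region in it need not be a bound site. At equal length, the 970 strongest regions of replicate 1 held a summit for 21 rps- genes, beside 4.47% of all genes. Those of replicate 2 held one for 22, beside 4.63%. By structure, 10 of 13 genes for proteins of the head and 12 of 18 for those of the body and platform had an IDR summit.

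**Figure D1:**
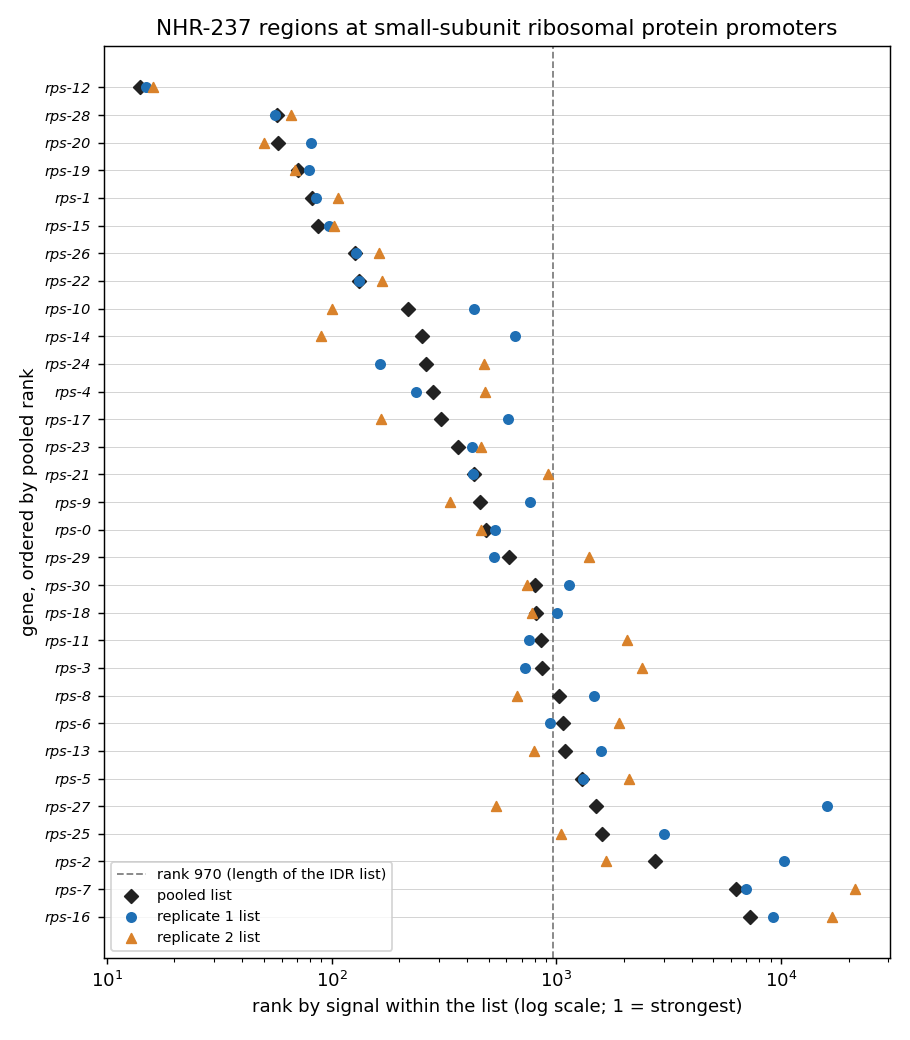
Rank by signal (log scale, 1 = strongest) of the strongest region in the promoter of each of the 31 rps- genes in the pooled list (diamonds), the replicate 1 list (circles) and the replicate 2 list (triangles); the dashed line is rank 970. The genes spread from rank 14 to rank 7275 in the pooled list, and the 22 whose diamond lies to the left of the line are those with an IDR summit.

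Among the strongest regions were those of several genes for head proteins. The region of rps-12, whose product is a head protein known in Drosophila for its part in cell competition, had a signal of 151 in replicate 1 (rank 15) and 126 in replicate 2 (rank 16), and 278 in the IDR list (rank 14). It was one of only 2 rps- regions narrower than the usual 364 bp, at 146 bp, and the other, of 154 bp, belonged to rps-20. Next came rps-28, for a small head protein near the exit of the messenger RNA, with 98.5 (rank 56) and 73.3 (rank 66) in the replicates and 174 in the IDR list (rank 57), at chrIV:1659094-1659457. For rps-20, also a head protein, the replicate signals were 87.1 (rank 81) and 82.98 (rank 50), and the IDR signal was 173 (rank 58), at chrI:14469269-14469422. The replicate ranks differed by a factor of 1.07 for rps-12, 1.18 for rps-28 and 1.62 for rps-20, where the median over the 22 genes with an IDR summit was 1.57.

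The gene rps-19, mutated in human Diamond-Blackfan anaemia, had 87.99 (rank 79) in replicate 1 and 71.7 (rank 69) in replicate 2, with an IDR signal of 161 (rank 71), at chrI:9625903-9626266. For rps-15, needed for export of the unfinished subunit from the nucleus in yeast and human cells, the replicate ranks were 97 and 102 and the IDR rank 87 (signal 148), at chrI:8816393-8816756. Both are head proteins, so 5 of the 6 rps- genes among the 100 strongest IDR peaks encode proteins of the head. The sixth was rps-1, for a protein of the platform. Of the next 6 by IDR rank only rps-10 encodes a head protein, and so do rps-3 and rps-18 among the 3 lowest, so the order was not one of head before body.

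Among genes for the body and platform, rps-1 had 86.0 (rank 85) and 60.8 (rank 107) in the replicates and 151 (rank 82) in the IDR list, at chrIII:4475493-4475856. The gene rps-26, whose product touches the messenger RNA at the exit channel, ranked 129 and 163 in the replicates and 127 in the IDR list (signal 129.8), at chrI:14759341-14759704. The gene rps-22, the counterpart of human RPS15A, ranked 133 and 167, and 132 in the IDR list (signal 128.5), at chrIII:1950233-1950596. These 3 regions had a higher rank in replicate 1 than in replicate 2, by a factor of 1.26 for each.

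The other IDR members lay between rank 218 (rps-10) and rank 861 (rps-3). They include rps-14 for a platform protein (rank 252), rps-24 (264), rps-4 (283), rps-17 (308) and rps-23 for a protein at the decoding centre (366). Further down came rps-21 (430), rps-9 (457), rps-0 (486), rps-29 (614) and rps-30 (807), whose product is made as a fusion with a ubiquitin-like protein. The lowest were rps-18 (812, signal 57.9), rps-11 (857, 56.2) and rps-3 (861, 56.2), the last a protein of the messenger RNA entry channel. Over the 22 genes the median IDR rank was 273.5, with 16 among the 485 strongest peaks. The 34 rpl- genes of the large subunit with an IDR summit had a median rank of 348.5, and all 931 protein-coding genes with one had a median of 447.

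The 9 genes without an IDR summit split into those just under the threshold and those far below it. Just outside were rps-8 at pooled rank 1026 (signal 51.2), rps-6, the ribosomal target of S6 kinase, at 1068 (49.97), and rps-13 at 1098 (49.3), where the weakest IDR peak of the list had 52.6. They were followed by rps-5 at 1298 (45.5), rps-27 at 1496 (42.2) and rps-25 at 1595 (40.97). These 6 lie among the 2000 strongest pooled regions. The other 3 were much lower: rps-2, for a protein at the entry of the messenger RNA, at 2740 (32.7), rps-7 at 6326 (24.8) and rps-16 at 7275 (23.9) of 7699. The −log10 q of the pooled region was 2.14 for rps-8 and fell to 0.382 for rps-2, 0.0404 for rps-7 and 0.0217 for rps-16, where a value near 0 means a q near 1.

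For rps-16, whose tail reaches the decoding site, the pooled summit lay in an exon of the neighbouring gene fib-1, the rRNA methyltransferase fibrillarin. The pair lies on the same strand with 109 bp between them. The nearest IDR summit (rank 444, signal 77.2) was 1766 bp upstream of rps-16 and 84 bp upstream of fib-1. With a promoter of 2000 bp upstream this summit reached rps-16, which made 23 genes. In nematodes closely spaced genes on one strand can be transcribed together from an upstream promoter, and whether this pair is was not tested. For the other 8 genes the nearest IDR summit was at least 8209 bp from a start.

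**Figure D2:**
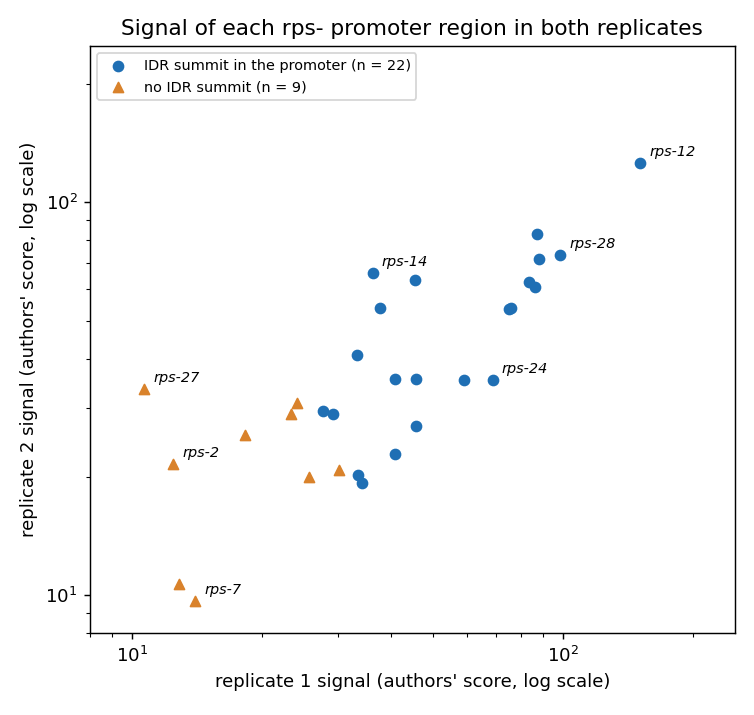
Signal of the strongest region in each rps- promoter in replicate 1 (x axis) and replicate 2 (y axis), both the authors' score on log scales, for the 22 genes with an IDR summit (circles) and the 9 without (triangles). The strongest gene, rps-12, is at 151 and 126, while rps-27 is at 10.7 and 33.4.

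Both replicates ordered the genes in a similar way, though the ranks of many single genes differed. Across the 31 genes the replicate ranks had a Spearman rho of 0.76, and across the 22 with an IDR summit 0.69. No rho over other genes is given here, so these values are not shown to be particular to the rps- genes. The points share the 2 libraries, and the 22 are the rps- genes among the 970 strongest regions pooled from these replicates. Of the 31, 17 were higher in rank in replicate 1 and 14 in replicate 2, and the median ratio of the ranks was 2.02. The gene rps-27, for a zinc-binding protein, differed most: its signal was 10.7 in replicate 1 (rank 16031) and 33.4 in replicate 2 (rank 539). Next was rps-14 with 36.2 (rank 657) and 66.1 (rank 90), a ratio of 7.30. For rps-2 the signals were 12.5 (rank 10290) and 21.6 (rank 1655), a ratio of 6.22. All 3 had the higher rank in replicate 2.

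The 970 strongest regions of both replicates included 17 rps- genes, and all of these had an IDR summit. The IDR list matches the 970 strongest regions pooled from the same replicates, so this overlap was close to fixed in advance. The share of all protein-coding genes strong in both replicates is not given here. The other 5 IDR genes were there in one replicate alone. These were rps-3 (rank 729 in replicate 1, 2402 in replicate 2), rps-11 (755 and 2063) and rps-29 (530 and 1404), which passed in replicate 1, and rps-18 (1007 and 780) and rps-30 (1134 and 743), which passed in replicate 2. Of the genes without an IDR summit, rps-6 passed in replicate 1 (rank 935, against 1895). The genes rps-8 (668, against 1476), rps-13 (794, against 1580) and rps-27 passed in replicate 2. Neither replicate had rps-2, rps-5, rps-7, rps-16 or rps-25 among its 970 strongest. The line between genes with and without an IDR peak thus runs through a range in which the replicates differ.

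**Figure D3:**
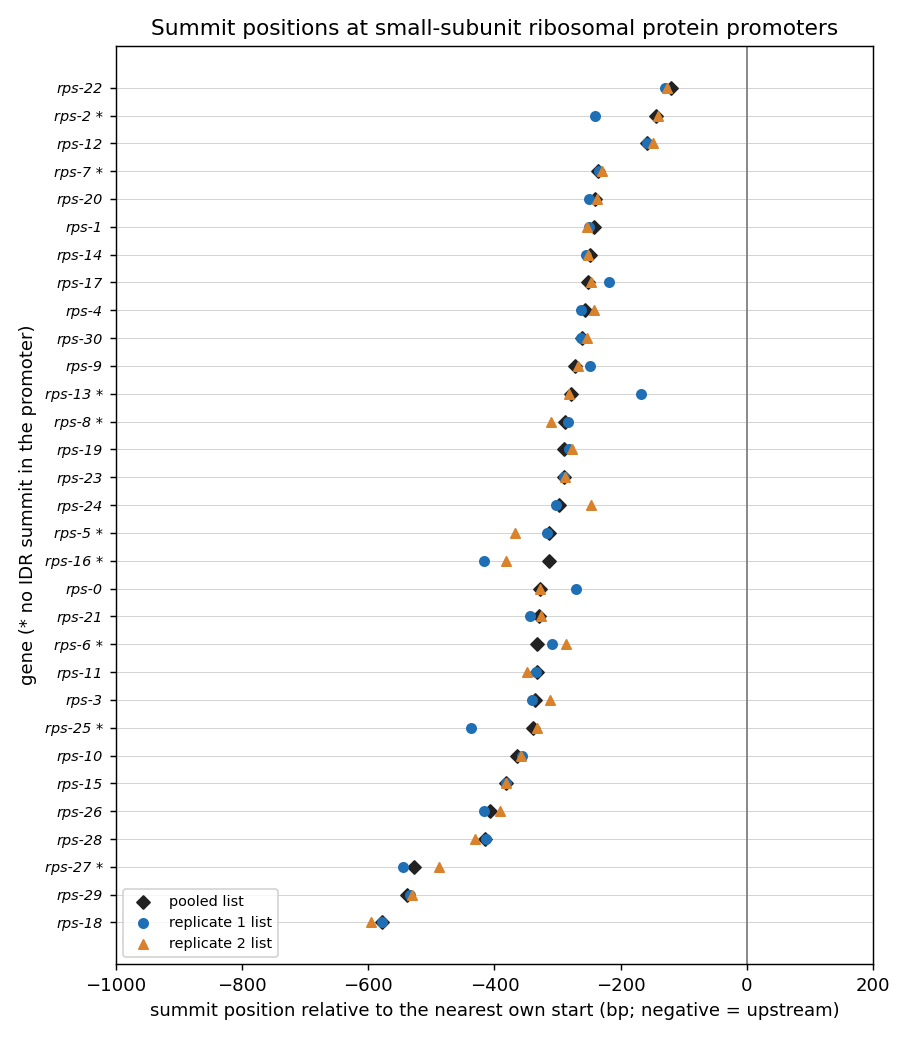
Position of the strongest summit in each rps- promoter relative to the nearest own start, in bp (negative is upstream), in the pooled list (diamonds) and both replicate lists (circles and triangles); an asterisk marks the 9 genes without an IDR summit. All summits lie upstream, from 120 to 578 bp in the pooled list.

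The rps- summits lay upstream of their genes, as most summits did: in the IDR list this held for 22 of 22 rps- genes, 33 of 34 rpl- genes and 96.2% of all 931 genes with a summit. The promoter window, 1000 bp upstream to 200 bp downstream, itself admits mostly upstream positions. For the rps- genes the median distance to the nearest own start was 293 bp, with quartiles of 252.5 and 357 bp. The nearest summit was that of rps-22 at 120 bp, followed by rps-12 at 158 bp, and the farthest were those of rps-29 at 538 bp and rps-18 at 578 bp. The 9 genes without an IDR summit had pooled summits in the same range, from 144 bp (rps-2) to 527 bp (rps-27) with a median of 313 bp. The rpl- genes had a median of 288.5 bp with quartiles of 255 and 357 bp. Over all 931 genes with an IDR summit the median was 249 bp, and the quartiles were wider apart at 146 and 407.5 bp.

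The replicate summits of a gene mostly lay closer together where it had an IDR summit, with exceptions both ways. For the 22 genes with an IDR summit the replicate summits were a median of 13 bp apart, and 17 of the 22 were within 20 bp. They were 1 bp apart for rps-10, rps-15 and rps-23, but 56 bp apart for rps-0 and rps-24. For the 9 other genes the median was 51 bp and 1 was within 20 bp, the weak rps-7 at 5 bp. The widest gaps were 114 bp at rps-13, 105 bp at rps-25 and 100 bp at rps-2. In every case the replicate region overlapped the pooled one.

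Most rps- IDR summits lie in the promoters of 2 or more genes and cannot be given to one of them from position alone. Of the 22 summits, 17 (77.3%) were also in the promoter of another protein-coding gene. Among all 670 IDR peaks with a summit in such a promoter, 256 (38.2%) were in 2 or more. These shares are not on the same footing. The rps- summits were picked through genes, and a peak in 2 promoters has 2 ways to be picked. The share over all genes with an IDR summit is not given here. In 18 of the 22 (81.8%) the nearest gene upstream is on the opposite strand, as for 69.6% of all genes with an IDR summit and 46.2% of all protein-coding genes. Of the 9 genes without an IDR summit 4 have this arrangement. The nearest gene upstream was counted at any distance, which was 14392 bp for rps-28 and 2701 bp for rps-24. Some of the neighbours are themselves large-subunit genes: rpl-24.1 faces rps-10, rpl-36 faces rps-14 and rpl-39 faces rps-30.

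Nearness to the partner varied. The rps-12 summit was 135 bp upstream of ska-3, a kinetochore gene, and 158 bp upstream of rps-12. The rps-22 summit was 146 bp upstream of polh-1, a DNA polymerase gene, and the rps-20 summit 156 bp upstream of ekl-4. That of rps-29 was 29 bp upstream of snt-2, a synaptotagmin gene, and 538 bp from rps-29. The rps-18 summit lay in an exon of sec-61.A, the channel for secreted proteins, 163 bp downstream of that gene's start. For rps-10 the summit was 246 bp upstream of rpl-24.1 and 364 bp upstream of rps-10. When each IDR summit counted only for the gene with the nearest start, 11 of the 22 rps- genes kept theirs, among them rps-28, rps-1, rps-15 and rps-22, while rps-12, rps-19 and rps-20 did not. The share of all genes under this rule is not given here, so whether the loss is particular to rps- genes is unknown. Only rps-4, rps-11, rps-17, rps-21 and rps-24 had an IDR summit in no other promoter.

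Small RNA genes lay near 2 of the 31 pooled summits, and the share over all IDR peaks is not given here. Genes of snoRNAs lay within 250 bp of the summits of rps-12 (F54E7.10) and rps-26 (F39B2.14), and no tRNA, snRNA, miRNA or rRNA gene lay within that distance of any of the 31 pooled summits.

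The receptor half-site was rare in IDR windows of every kind. AGGTCA, searched on both strands, was in none of the 31 windows of 101 bases and in 24 of all 970 IDR windows (2.47%). CTGCGTCT, a word known from promoters of broadly expressed nematode genes, was in 1 of the 31 (rps-11) and in 14.02% of all IDR windows. GAGAGAGA was in 1 (rps-16) and in 9.38%. TATAAA was in 2 and in 4.12%, and TTTCAG, the usual end of an intron and of a spliced-leader site, in 3 and in 5.57%. In 300 bases from 250 upstream to 50 downstream of the outermost start, TTTCAG was in 19 of the 31 rps- genes and in 51.7% of all genes, and AGGTCA in 2 of 31 and in 8.27%. A word that is missing from these windows says nothing about the factor.

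Other words were shared by many of the windows. The 4 words of 6 bases in at least 8 of the 31 windows and highest in ratio to all IDR windows were chosen from these windows, so their counts are a description only. GAGACC, which reads GGTCTC on the other strand, was in 13 of 31 windows (41.9%) and in 11.5% of all IDR windows. It was in 8 of the 22 with an IDR summit and in 5 of the 9 without, and is the word in the window of rps-8. CGCAGC was in 12 (38.7%) and in 7.32%. CAGCCA was in 9 (29.03%) and in 5.36%, and AGCCAA, which overlaps it, in 8 (25.8%) and in 4.12%. None of the 9 windows without an IDR summit held CAGCCA or AGCCAA. Among the 34 windows of rpl- genes with an IDR summit, 16 held GAGACC and 8 held CGCAGC. In the same 34 windows CAGCCA was found 7 times and AGCCAA 5 times.

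The words were not in every strong region. At least 1 of the 4 was in 21 of the 31 windows and in 20.9% of all IDR windows. The windows of rps-28 and rps-1, among the strongest, held none. The window of rps-14 held GAGACC and, in opposite orientations, a pair of copies of CGCAGCCAA, in which the other words overlap. That of rps-22 held a pair of copies of CAGCCA and AGCCAA on the opposite strand, as TTGGCTG. A count of words in windows is not a count of binding sites.

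**Figure D4:**
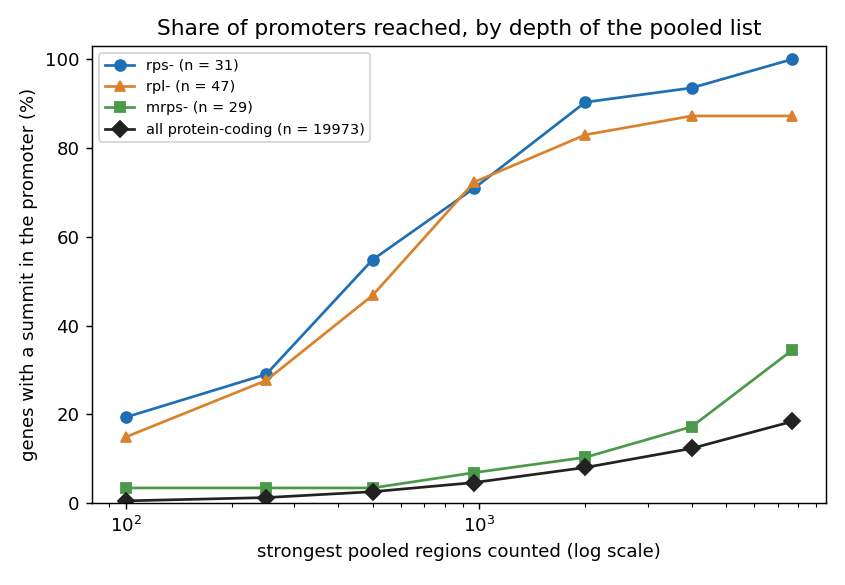
Share of genes with a summit in the promoter (y axis, %) as more of the strongest pooled regions are counted (x axis, log scale), for 31 rps- genes, 47 rpl- genes, 29 mrps- genes and all 19973 protein-coding genes. At 970 regions the shares equal those of the IDR list: 71.0% for rps-, 72.3% for rpl- and 6.90% for mrps-.

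The genes of the large subunit were close to the rps- genes and those of the mitochondrial small subunit were not. Of 47 rpl- genes, 34 had an IDR summit (72.3%, 95% exact interval 57.4 to 84.4), and of 29 mrps- genes, whose products build the small subunit of the mitochondrial ribosome, 2 did (6.90%, 0.846 to 22.8). The difference between these lists was not tested. Among the 100 strongest pooled regions were those of 6 rps- and 7 rpl- genes. With 2000 regions 28 rps- genes (90.3%) and 39 rpl- genes (82.98%) were reached, beside 8.06% of all genes. With all 7699 regions 6 rpl- genes had none, and every rps- gene had one.

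Some genes that work with the small subunit or in making ribosomes had an IDR summit and others did not. Of all protein-coding genes, 4.66% had one. Of 16 partner genes found by name, 5 had an IDR summit: ubl-1 (rank 158, signal 122, with replicate ranks of 178 and 155) and the initiation factor eIF3 genes eif-3.C (113), eif-3.B (135), eif-3.E (437) and eif-3.H (831). The gene rack-1, for the scaffold protein on the head of the subunit, had pooled rank 2261 and replicate ranks of 3115 and 2740. The genes eif-3.D, eif-3.F and eif-3.L had no region in the promoter in any of the 4 lists, unlike all 31 rps- genes. Of 12 genes listed by name for making ribosomes or for its control, 5 had an IDR summit. These were rbd-1 (rank 125), fib-1 (444), the box C/D snoRNP genes nol-56 (700) and nol-58 (830), and the kinase gene riok-1 (970, the weakest of all IDR peaks). The list includes pro-1, pro-2, pro-3 and lpd-6, which had no IDR summit. Whether each listed gene acts on the small subunit was not checked, so the count is not one of small-subunit genes alone. The genes riok-2 and riok-3 had a region in the replicate 1 list alone.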

How the data were processed

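Per the labels, DNA of 150 to 350 bp from whole L1 larvae was sequenced in 2 biological replicates. Per the readme files deposited with the samples, the lists were derived from the reads of 1 replicate or of both, each with a control alignment. The IDR list was made from the remaining lists. Which aligner and caller were used, and at which IDR cutoff, is not given in the sources here. The deposited signal value is a score of unstated scale and served to rank regions within a list. Signals of both replicates are set side by side only as a description, because their scales may differ. The deposited −log10 q served only as a description. The deposited summit offset was added to the region start, and positions are counted from 1 on ce11. The ce10 lists were not used. Gene names and starts came from Ensembl release 115 (WBcel235) and bases from RefSeq. Where a promoter held several summits, the strongest was taken. Promoter assignment was tested on simulated regions. Intervals of shares are exact (Clopper-Pearson, 95%) and cover only counting error. They treat genes as independent draws, although each set is complete by its name rule and all genes share the same 2 libraries. Python 3.11.15, scipy 1.17.1 and numpy 2.4.6 were used.

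All genes, lists, motifs and groupings were chosen with earlier results of these data known. Described in full are the 8 highest and 3 lowest rps- genes in IDR signal, those without an IDR summit, those with the nearest and farthest summit, the 3 whose replicate ranks differ most, and genes sharing a summit. Other genes were named after their values were seen. The name iftb-1 matched no protein-coding gene. Alternatives were other promoter windows, starts, overlaps and list lengths, and leaving out each replicate.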

Additional observations from a re-analysis of the deposited data

How the results depend on the processing

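The count of 22 rps- genes with an IDR summit was 20 with a promoter of 500 bp upstream to 100 bp downstream (rps-18 and rps-29 fall out), 23 with 2000 bp upstream, 16 among the 485 strongest IDR peaks, and 22 with the outermost start or with overlap of 1 bp or 50% of the region in place of the summit. It was 11 where each summit counted only for the gene with the nearest start, a rule for which no share over all genes is given. There is no IDR list for 1 replicate, so leaving out a replicate gave the genes among the 970 strongest regions of the other. This repeats the counts given above, 21 to 22 genes. Without replicate 1 rps-3, rps-11 and rps-29 fell out and rps-8, rps-13 and rps-27 came in. Without replicate 2 rps-18 and rps-30 fell out and rps-6 came in. The median distance of -293 bp was -289 with the narrow promoter, -297 with 2000 bp upstream and -280.5 among those 485 peaks, and -289 to -279.5 when a replicate was left out. Among the 2000 strongest regions the pooled list held 28 genes and each replicate list 26. With windows of 100 bp on each side of the summit TATAAA was in 7 of the 31 (12.8% of all IDR windows), TTTCAG in 6 (18.4%) and CTGCGTCT in 2 (20.2%). No paired analysis was possible because there is only 1 group. The unknown depth limits what can be said of weak regions, as for rps-7 and rps-16.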

Other observations

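The rps- genes are unevenly spread over the chromosomes. Chromosome IV has 10, of which 6 had an IDR summit, chromosome III has 9 with 8, chromosome I has 8 with 6, chromosome V has 3 with 1 (rps-30), and chromosome II has rps-9, which had one. The share of all genes with an IDR summit on each chromosome is not given here. These small counts therefore show no difference in binding between chromosomes. Chromosome X, with 13.7% of protein-coding genes, has none. The strength of the rps- regions therefore cannot be compared between X and the other chromosomes.

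The windows under the rps- summits were rich in G and C. The median GC content of 101 bases was 49.0% for the 22 genes with an IDR summit (from 33.7% at rps-18 to 58.4% at rps-29) and 46.5% for the 9 without (from 24.8% at rps-2 to 56.4% at rps-6). All 970 IDR windows had a median of 47.5%, and the nuclear genome has 35.4%.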
